A study of Homo sapiens with 12 samples.

Results

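Fibrillar collagen is made strong by enzymes that act on it in sequence. Inside the cell, prolyl 4-hydroxylases modify prolines so that the triple helix is stable, and lysyl hydroxylases modify lysines in the helix and in the telopeptides at its ends. Outside the cell, lysyl oxidases convert lysines and hydroxylysines to aldehydes, from which the covalent crosslinks between collagen molecules form, and these crosslinks stiffen the matrix around breast tumors. The genes described here code for 10 of these enzymes, or their catalytic subunits, and were found by symbol in the deposited count table, where each had 1 entry among 23368 gene symbols. They are the 2 catalytic subunits P4HA1 and P4HA2 of prolyl 4-hydroxylase, the 3 lysyl hydroxylases PLOD1, PLOD2 and PLOD3, and the 5 lysyl oxidases LOX, LOXL1, LOXL2, LOXL3 and LOXL4.

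The study grew 2 breast cancer cell lines as single cells in soft, cell-degradable poly(ethylene glycol) hydrogels carrying either GFOGER, a collagen mimic, or IKVAV, a laminin mimic, and sequenced poly(A) RNA on day 3. MDA-MB-231 is an estrogen receptor negative basal line and T47D an estrogen receptor positive luminal A line, each established from 1 patient, so differences between the lines are differences between 2 cell lines and not between subtypes. Counts were available for MDA-MB-231 with GFOGER (3 libraries), MDA-MB-231 with IKVAV (2 libraries), T47D with GFOGER (3 libraries) and T47D with IKVAV (3 libraries). A further replicate of MDA-MB-231 with IKVAV, which the submitters left out as an outlier, was not analysed here. Each library pooled RNA from 3 gels, all gels were dissolved with collagenase before lysis, and no group was grown without a peptide. Nothing in the labels says that replicates came from separate cultures, so p-values measure the spread between these libraries, which may be technical. Fewer cells that express a gene and less RNA per cell cannot be told apart in these bulk samples.

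The 11 libraries held between 14338238 and 18452145 counts. The enzymes together took 0.146% to 0.160% of the counts in MDA-MB-231 libraries and 0.0356% to 0.0426% in T47D libraries. A pair of libraries stood apart from the others of their condition. Replicate 3 of MDA-MB-231 with GFOGER differed from its replicates by a chi-square per gene of 16.4 and 18.6, and replicate 3 of T47D with IKVAV by 16.9 and 17.9, whereas all other pairs had values from 2.51 to 9.92.

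Markers fitted the labelled cell lines. The 9 luminal epithelial markers summed to between 526.2 and 641.2 cpm (counts per unit of library size, scaled by the trimmed mean of M-values, TMM) in MDA-MB-231 libraries and between 7015 and 8153 cpm in T47D libraries, and all 9 were significantly lower in MDA-MB-231. ESR1, the estrogen receptor, was at 0.531 to 0.721 cpm on average in the MDA-MB-231 conditions and at 270.2 to 301.8 cpm in the T47D conditions. The 6 basal B or mesenchymal-like markers, led by VIM and CD44, summed to 7365 to 7798 cpm in MDA-MB-231 with GFOGER, 4995 to 5080 cpm in MDA-MB-231 with IKVAV and 116.9 to 132.4 cpm in T47D.

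Between the mimics, 5 of the 10 enzymes changed in MDA-MB-231 cells, where 42.9% of all genes tested did. In GFOGER relative to IKVAV matrices, P4HA1, PLOD1 and P4HA2 were significantly decreased and LOXL1 and LOXL2 significantly increased, each by less than 2-fold. P4HA2 passed in only 1 of 5 fits with a library removed. In T47D cells no member passed the test. Across cell lines, 8 of the 10 enzymes were more than 2-fold higher in MDA-MB-231, against 23.7% of all genes tested, with LOXL2, LOXL4 and LOX higher by over 100-fold, whereas LOXL3 was higher in T47D and PLOD2 was nearly level. The plot of levels by library shows these patterns together.

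**Figure D1:**
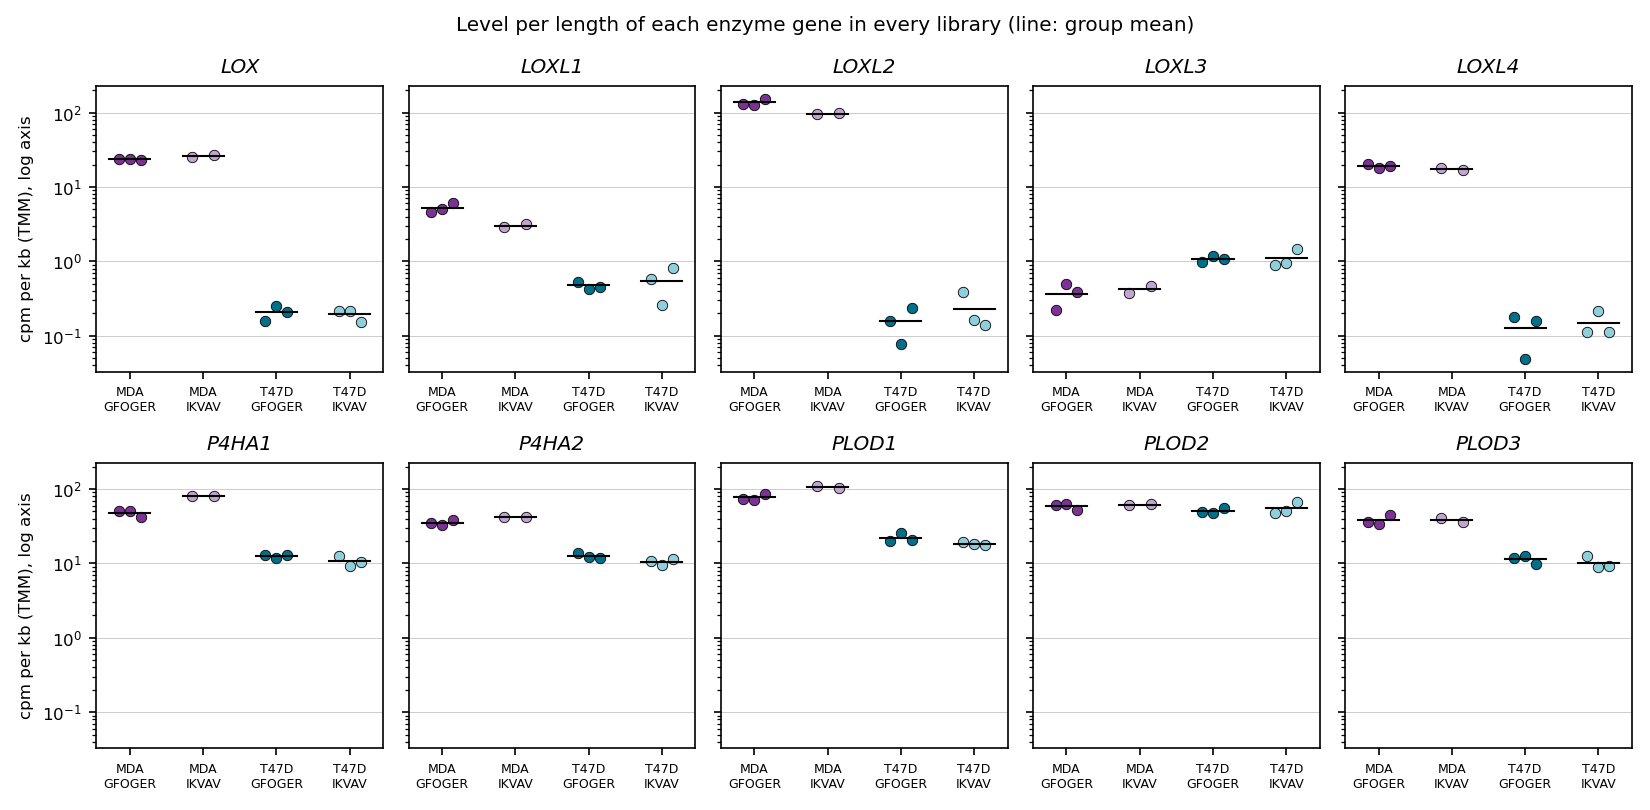
Level of each of the 10 enzyme transcripts in every library, in TMM-scaled cpm per kilobase of gene length on a log axis, by cell line (MDA stands for MDA-MB-231) and mimic; each point is 1 library and lines are group means. P4HA1 sits at 42.5 to 50.1 with GFOGER and 79.9 to 80.8 with IKVAV in MDA-MB-231, and LOX, LOXL2 and LOXL4 are at most 0.39 in T47D.

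The stretch upstream of the start is shown for 3 of the enzymes, because P4HA1 and PLOD1 were the enzymes that fell with the smallest p-values in MDA-MB-231 and LOXL1 the one with the largest increase. P4HA1 lies on hg19 chr10:74766980-74856732, PLOD1 on chr1:11994724-12035599 and LOXL1 on chr15:74218789-74244478, as the deposited table gives them. The sequences are RefSeq promoter windows, found unchanged in GRCh37 (hg19), trimmed to the bases before the gene in the deposited table, and printed 5′ to 3′ on the strand of the gene. They are chr10:74856733-74856874 on the minus strand for P4HA1, chr1:11994524-11994723 on the plus strand for PLOD1 and chr15:74218553-74218788 on the plus strand for LOXL1. Capitals mark the core of a hypoxia response element, searched as ACGTG or GCGTG on both strands, where ACGTG overlaps the E-box CACGTG.
P4HA1: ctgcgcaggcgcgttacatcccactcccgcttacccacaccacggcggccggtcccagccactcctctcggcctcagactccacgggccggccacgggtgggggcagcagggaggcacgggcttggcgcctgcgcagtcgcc
PLOD1: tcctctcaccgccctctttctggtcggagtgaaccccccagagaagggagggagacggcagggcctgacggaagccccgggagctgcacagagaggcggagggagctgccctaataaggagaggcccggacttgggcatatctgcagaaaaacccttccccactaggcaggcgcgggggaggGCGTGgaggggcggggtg
LOXL1: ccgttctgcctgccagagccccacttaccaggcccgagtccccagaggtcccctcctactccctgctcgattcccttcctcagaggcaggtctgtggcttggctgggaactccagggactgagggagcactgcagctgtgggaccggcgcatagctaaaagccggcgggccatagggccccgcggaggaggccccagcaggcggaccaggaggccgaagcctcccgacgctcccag

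The whole RefSeq window of 300 bases, 250 of them before the start, was searched for 9 of the 10 enzymes, and LOXL2 was left out of the search. Of the 9, 4 held at least 1 such core. LOX had 4 matches, PLOD2 had 3, PLOD1 had 2 and P4HA1 had 1, which lies after the stretch printed above, and LOXL1, LOXL3, LOXL4, P4HA2 and PLOD3 had 0. Of all 35116 RefSeq windows, 48.4% held at least 1 core and 23.1% more than 1. The enzymes with a core included a pair that fell in GFOGER matrices, P4HA1 and PLOD1, and a pair that did not pass the test, LOX and PLOD2.

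The first comparison asked how MDA-MB-231 cells differed between the collagen and the laminin mimic. All 10 enzymes passed the filter on low counts, 5 passed edgeR's quasi-likelihood test with a Benjamini-Hochberg adjusted p below 0.05, and 0 were past 2-fold as well, with this test, DESeq2 or the likelihood ratio test and at any p. Of the 14092 genes tested, 42.9% passed at any fold, 21.4% higher with GFOGER and 21.4% lower, and 9.57% were past 2-fold as well. The counts of 2 enzymes that rose and 3 that fell are therefore near those of genes in general. The median log2 fold change of the 10 enzymes was -0.10, against 0.0039 over all genes tested, and their median absolute log2 fold change was 0.23, against 0.34. Without replicate 3 of the GFOGER condition, 2 enzymes rose and 4 fell, while 57.5% of all genes tested passed at any fold.

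P4HA1, the catalytic subunit of the most widely expressed prolyl 4-hydroxylase, changed with the smallest p-value. Its level was 150.5, 150.8 and 127.9 cpm in the 3 GFOGER libraries and 243.1 and 240.6 cpm in the 2 IKVAV libraries. All GFOGER libraries were lower than both IKVAV libraries, by a margin far wider than the spread within either mimic. P4HA1 was 1.70-fold lower in GFOGER matrices, a log2 fold change of -0.76 (SE 0.097, 95% interval -0.97 to -0.56, adjusted p = 1.17e-05, edgeR). P4HA1 passed in all 5 fits that left out 1 library.

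P4HA2, the catalytic subunit of a second form of the enzyme, was at 94.9, 88.3 and 102.8 cpm with GFOGER and at 113.4 and 113.2 cpm with IKVAV. The groups did not overlap but lay close together. The log2 fold change was -0.26 (SE 0.098, adjusted p = 0.0434, edgeR). With a library removed it ran from -0.31 to -0.21, and it passed in only 1 of 5 fits, the one without GFOGER replicate 3. Per kilobase of gene length, P4HA1 was 1.92 ± 0.012 times as abundant as P4HA2 with IKVAV (SD, n = 2) and 1.36 ± 0.22 times with GFOGER (SD, n = 3).

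Per kilobase the lysyl hydroxylases kept the order PLOD1, PLOD2, PLOD3 with either mimic, but only PLOD1, which hydroxylates lysines of the helix, changed. PLOD1 was at 224.5, 217.6 and 259.6 cpm with GFOGER and at 331.6 and 313.4 cpm with IKVAV. Every GFOGER library was lower than both IKVAV libraries, and the highest of them was the replicate that stood apart. The log2 fold change was -0.47 (SE 0.092, adjusted p = 0.000605, edgeR), a 1.39-fold decrease that was -0.55 without that replicate. PLOD2, the hydroxylase of telopeptide lysines, was at 211.4 to 259.7 cpm with GFOGER and at 247.0 and 255.9 cpm with IKVAV, so that the groups overlapped, and its log2 fold change was -0.076 (95% interval -0.29 to 0.13, adjusted p = 0.57, edgeR). PLOD3, which also carries glycosyltransferase activity, was at 100.1 to 133.2 cpm with GFOGER and at 106.5 and 123.0 cpm with IKVAV. Its log2 fold change was -0.028 (95% interval -0.28 to 0.22, adjusted p = 0.87, edgeR), but -0.15 without GFOGER replicate 3, where the adjusted p was 0.034.

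Among the lysyl oxidases, LOXL2, which acts on collagen IV as well as fibrillar collagens, was the most abundant. It was at 497.6, 485.3 and 580.3 cpm with GFOGER and at 361.4 and 371.7 cpm with IKVAV. All 3 GFOGER libraries were higher than both IKVAV libraries. The increase was 1.41-fold, a log2 fold change of 0.50 (SE 0.090, 95% interval 0.31 to 0.69, adjusted p = 0.000337, edgeR). It was 0.42 without GFOGER replicate 3, the highest library, and passed whichever of the 5 libraries was left out.

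LOXL1, known for its role in elastic fibre maintenance, was much less abundant, at 10.97, 12.11 and 14.35 cpm with GFOGER and at 6.87 and 7.42 cpm with IKVAV. The groups did not overlap, and LOXL1 rose by a log2 fold change of 0.80 (SE 0.18, 95% interval 0.42 to 1.17, adjusted p = 0.00175, edgeR), or 1.73-fold. Without GFOGER replicate 3, its highest library, the log2 fold change was 0.69. The gene shares 1801 bases with LOC100287616, which had 142 to 188 counts with GFOGER and 63 to 90 with IKVAV and rose as well (log2 fold change 0.99, adjusted p = 0.0011, edgeR). The strand option of the counting is not given in the sources used here, so reads of the pair may not be separable.

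LOX, the founding member of the family, was at 130.0, 128.6 and 126.1 cpm with GFOGER and at 134.8 and 144.8 cpm with IKVAV. The groups did not overlap, but the difference was small, with a log2 fold change of -0.13 (95% interval -0.33 to 0.062, adjusted p = 0.262, edgeR) that ran from -0.18 without IKVAV replicate 1 to -0.075 without IKVAV replicate 2. LOXL4 was at 65.7 to 74.7 cpm and at 61.6 and 66.6 cpm, with overlapping groups and a log2 fold change of 0.12 (95% interval -0.11 to 0.34, adjusted p = 0.401, edgeR), which was 0.066 without IKVAV replicate 2 and 0.17 without IKVAV replicate 1. LOXL3 was scarce, with 12 to 25 counts per library, and its log2 fold change of -0.21 had a 95% interval of -1.12 to 0.70, so a 2-fold change in LOXL3 could hardly have been seen at this depth.

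**Figure D2:**
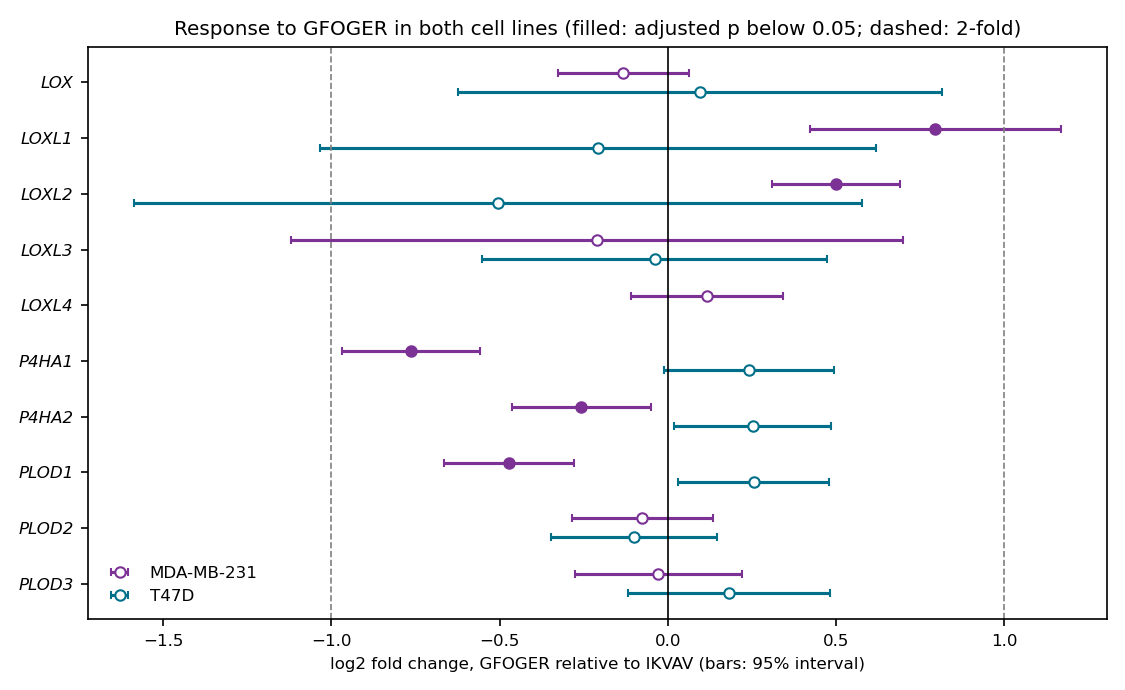
Log2 fold change of GFOGER relative to IKVAV for each enzyme in MDA-MB-231 and in T47D, with 95% intervals from the edgeR fits; filled symbols have an adjusted p below 0.05 and dashed lines mark 2-fold. In MDA-MB-231 P4HA1 lies at -0.76 and LOXL1 at 0.80, and the wide intervals in T47D belong to the lysyl oxidases with few counts.

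In T47D cells, 9 enzymes passed the filter on low counts, LOXL4 being left out, and 0 passed edgeR's quasi-likelihood test at an adjusted p below 0.05. The background was as low, with 0.044% of 13642 genes at any fold and 0.022% past 2-fold as well. At an unadjusted p below 0.05 there were 2 of 9 enzymes, PLOD1 and P4HA2, against 11.2% of all genes, and DESeq2 and edgeR's likelihood ratio test also called 0. The median log2 fold change of the 9 enzymes was 0.096, against -0.0010 over all genes tested. Without replicate 3 of the IKVAV condition 0 of 10 enzymes passed, and their median log2 fold change was 0.16. The share of all genes that passed at any fold was then 7.62%.

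PLOD1 was at 60.4, 76.8 and 63.2 cpm in the GFOGER libraries of T47D and at 59.6, 55.5 and 53.1 cpm in the IKVAV libraries. P4HA2 was at 37.4, 33.2 and 31.7 cpm with GFOGER and at 28.8, 25.9 and 31.1 cpm with IKVAV. In both genes the 3 GFOGER libraries were higher than the 3 IKVAV libraries, with gaps smaller than the spread within a mimic. The log2 fold changes were 0.25 for PLOD1 (SE 0.10, adjusted p = 0.385, edgeR) and 0.25 for P4HA2 (SE 0.11, adjusted p = 0.409, edgeR). That of PLOD1 was 0.14 without GFOGER replicate 2.

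P4HA1 in T47D was at 38.6, 35.9 and 39.7 cpm with GFOGER and at 37.6, 27.5 and 31.5 cpm with IKVAV. The groups overlapped at 1 IKVAV library, and the log2 fold change of 0.24 had a 95% interval of -0.011 to 0.49 (adjusted p = 0.466, edgeR). It ran from 0.14 to 0.37 with single libraries removed. The lower bound of the interval lay above the whole interval of P4HA1 in MDA-MB-231. PLOD2 was at 193.5 to 226.3 cpm with GFOGER and at 192.5 to 271.7 cpm with IKVAV, where the highest value was that of the library that stood apart. The log2 fold change of PLOD2 was -0.10 (95% interval -0.35 to 0.15). It was 0.065 without that library, and -0.39 with a term for the libraries of smaller implied totals. In T47D these are all GFOGER libraries and IKVAV replicate 3, the library that stood apart. That fit thus compared the GFOGER libraries with this 1 IKVAV library alone. PLOD3 had 0.18 (95% interval -0.12 to 0.48), with 0.089 without IKVAV replicate 2 and 0.35 without IKVAV replicate 1.

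All lysyl oxidases were scarce in T47D. LOX had 14 to 23 counts per library, LOXL1 10 to 32, LOXL2 5 to 22, LOXL3 41 to 78 and LOXL4 3 to 13. Their groups overlapped between the mimics, and for LOXL2 the 95% interval of the log2 fold change ran from -1.59 to 0.58. Differences of up to 2-fold in LOX, LOXL1, LOXL2 and LOXL4 were hardly detectable at this depth.

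The response to the mimic differed between the cell lines for 3 enzymes. The interaction term, the log2 fold change of GFOGER relative to IKVAV in MDA-MB-231 minus that in T47D, passed edgeR's quasi-likelihood test for P4HA1, PLOD1 and P4HA2, all below 0, against 21% of 15320 genes in either direction and 10.2% below 0. P4HA1 had an interaction of -0.9995 (SE 0.15, 95% interval -1.32 to -0.68, adjusted p = 0.000141, edgeR), PLOD1 of -0.72 (SE 0.14, adjusted p = 0.00153, edgeR) and P4HA2 of -0.50 (SE 0.15, adjusted p = 0.0188, edgeR). These are the 3 enzymes that fell in MDA-MB-231 and whose fitted values in T47D lay above 0. P4HA1 and PLOD1 passed whichever of the 11 libraries was left out and P4HA2 in 8 of those fits, failing without either MDA-MB-231 IKVAV library (0.0619 and 0.0649) or without T47D GFOGER replicate 1 (0.0627). P4HA2 also failed (-0.39, adjusted p = 0.158, edgeR) with a term for the 5 libraries whose deposited RPKM values imply smaller totals, which are all 3 of T47D with GFOGER, replicate 3 of T47D with IKVAV and replicate 1 of MDA-MB-231 with IKVAV, so that the term and the interaction cannot be fully told apart.

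LOXL1 and LOXL2 had interactions of 1.01 (SE 0.41, adjusted p = 0.0856, edgeR) and 1.00 (SE 0.43, adjusted p = 0.104, edgeR). Their increase in MDA-MB-231 was thus not shown to differ from T47D by this test, and both genes rest on few counts in T47D. Both passed with edgeR's likelihood ratio test (adjusted p = 0.0355 and 0.0315), and without a filter on low counts (0.05, rounded up from just below the threshold, and 0.028), and LOXL2 also with DESeq2 (0.0385). With single libraries removed, the interaction of LOXL1 ran from 0.60 without T47D IKVAV replicate 3 to 1.35 without T47D IKVAV replicate 2, and that of LOXL2 from 0.41 without T47D IKVAV replicate 1 to 1.43 without T47D GFOGER replicate 3, with 1 and 2 of 11 fits passing. Past 2-fold as well as the adjusted p there were 0 enzymes, against 6.42% of all genes. P4HA1 lies at that threshold, and with DESeq2 or with the likelihood ratio test 1 enzyme was past it. The other 5 enzymes had interactions between -0.22 and 0.33, none with an adjusted p under 0.511 (edgeR). With a library removed, the interaction of LOX ran from -0.40 to -0.053 and that of PLOD3 from -0.38 to -0.10.

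The largest differences lay between the cell lines. With the mean of both mimics in each line, 9 of the 10 enzymes passed edgeR's quasi-likelihood test and were past 2-fold, 8 higher in MDA-MB-231 and LOXL3 lower. Of 15320 genes tested, 46.3% were called in this way, 23.7% higher in MDA-MB-231 and 22.6% lower, and 84.5% passed at any fold. The median log2 fold change of the 10 enzymes was 2.29, against -0.015 over all genes tested, and the median absolute value was 2.29 against 0.90.

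LOX, LOXL2 and LOXL4 were nearly restricted to MDA-MB-231. LOXL2, at 361.4 to 580.3 cpm in MDA-MB-231, was at 0.30 to 1.49 cpm in T47D, a log2 difference of 9.23 (SE 0.14, adjusted p = 7.06e-22, edgeR) or 599.8-fold. LOXL4 was at 61.6 to 74.7 cpm against 0.18 to 0.79 cpm, a 131-fold difference, and LOX at 126.1 to 144.8 cpm against 0.83 to 1.37 cpm, a 123-fold difference. The lowest MDA-MB-231 library exceeded the highest T47D library by a wide margin in each of these genes, and the levels in T47D rest on few counts. LOXL1 was higher by a smaller log2 difference of 2.97 (SE 0.19), at 6.87 to 14.35 cpm against 0.61 to 1.90 cpm.

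LOXL3 went the other way. It was at 0.69 to 1.54 cpm in MDA-MB-231 and at 2.78 to 4.63 cpm in T47D, with no overlap, and was 2.79-fold lower in MDA-MB-231 (log2 difference -1.48, SE 0.23, adjusted p = 5.75e-06, edgeR). The gene overlaps DOK1 and HTRA2, which had 51 to 225 and 168 to 463 counts per library, and the share of LOXL3 reads that could belong to either was not tested.

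Of the enzymes that act inside the cell, 4 were higher in MDA-MB-231 past 2-fold, where 23.7% of all genes tested were and 84.5% passed at any fold. P4HA1 was higher in MDA-MB-231 by a log2 difference of 2.41 (SE 0.078), PLOD1 by 2.167 (SE 0.073), PLOD3 by 1.82 (SE 0.10) and P4HA2 by 1.74 (SE 0.073), all with no overlap of libraries. PLOD2 was the exception, at 211.4 to 259.7 cpm in MDA-MB-231 and 192.5 to 271.7 cpm in T47D, so that the ranges overlapped. Its log2 difference of 0.19 (SE 0.083, adjusted p = 0.0374, edgeR) was past the adjusted p only. It was 0.11 with an adjusted p of 0.221 (edgeR) when libraries were scaled by upper quartiles, and reached 0.30 under another alternative. With single libraries left out in turn, PLOD2 kept an adjusted p below 0.05 in 4 of 11 fits.

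Levels of different enzymes were compared as cpm per kilobase of gene length. In MDA-MB-231 with GFOGER the order was LOXL2 (136.8 ± 13.6), PLOD1 (77.2 ± 7.4), PLOD2 (59.0 ± 6.2), P4HA1 (47.5 ± 4.4), PLOD3 (38 ± 5.9), P4HA2 (35.3 ± 2.7), LOX (23.7 ± 0.37), LOXL4 (19.1 ± 1.2), LOXL1 (5.29 ± 0.73) and LOXL3 (0.37 ± 0.14), each as mean ± SD of 3 libraries. Ranges of neighbours overlapped for P4HA1 and PLOD3 and for PLOD3 and P4HA2, and were separate otherwise. With IKVAV, PLOD1 (106.4 ± 4.3, n = 2) was above LOXL2 (96.2 ± 1.9), and P4HA1 (80.3 ± 0.60) was above PLOD2 (61.9 ± 1.6), so that both pairs stood in the opposite order to GFOGER. P4HA2 (41.9 ± 0.049) was also above PLOD3 (38.5 ± 3.9) with IKVAV, with separate ranges, whereas their ranges overlapped with GFOGER.

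In T47D the order per kilobase was the same with either mimic down to LOXL1. PLOD2 led with 51.1 ± 4.2 in GFOGER and 54.8 ± 10.6 in IKVAV matrices (SD, n = 3), followed by PLOD1 with 22.0 ± 2.9 and 18.5 ± 1.1. P4HA1, P4HA2 and PLOD3 came next, between 10.2 and 12.7 on average, with overlapping ranges. All 5 lysyl oxidases followed below 1.2, LOXL3 first. The ranges of LOX, LOXL2 and LOXL4 overlapped, as did those of LOXL1 and LOXL2 with IKVAV.

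The leading transcript of the lysyl oxidases and of the lysyl hydroxylases differed between the cell lines. LOXL2 made up 73.7% ± 1.8 of the lysyl oxidase level per kilobase in MDA-MB-231 with GFOGER (SD, n = 3) and 67.2% ± 0.17 with IKVAV (n = 2). In T47D, LOXL3 made up 52.8% ± 5.7 and 49.4% ± 7.6 of a family sum that was near 2 cpm per kilobase, against 185.3 and 143.1 in MDA-MB-231. PLOD1 led the lysyl hydroxylases of MDA-MB-231 with 44.2% ± 2.4 in GFOGER and 51.4% ± 0.41 in IKVAV matrices, whereas PLOD2 led those of T47D with 60.3% ± 4.5 and 65.3% ± 5.9.

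P4HA1 and P4HA2 were equal per kilobase in T47D, with P4HA1 at 50.1% ± 2.5 and 50.2% ± 3.4 of their sum. In MDA-MB-231 P4HA1 held 57.4% ± 4.1 with GFOGER and 65.7% ± 0.14 with IKVAV. The ratio of PLOD2 to PLOD1, per kilobase, was 0.77 ± 0.15 and 0.58 ± 0.038 in MDA-MB-231 and 2.35 ± 0.42 and 2.99 ± 0.74 in T47D, and the ranges of the cell lines were separate.

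**Figure D3:**
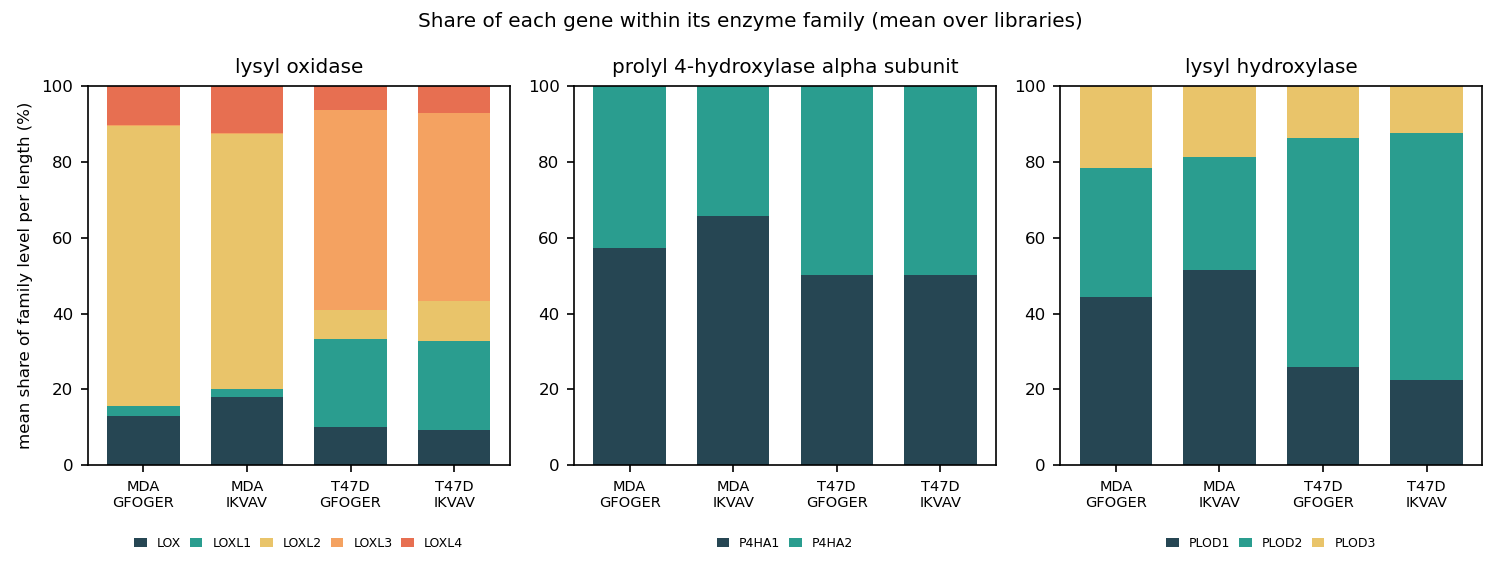
Mean share of each enzyme in the summed level of its family, in percent of TMM-scaled cpm per kilobase, as stacked bars for the 4 conditions (MDA stands for MDA-MB-231); each bar is the mean over the libraries of a condition and adds up to 100%. LOXL2 and PLOD1 lead in MDA-MB-231, LOXL3 and PLOD2 in T47D.

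Other genes of the pathway were described from lists written for these enzymes. Of 25 other collagen biosynthesis genes, 19 were tested in MDA-MB-231, of which 4 rose and 6 fell at any fold with GFOGER, and 1 rose and 2 fell past 2-fold, against 42.9% of all genes at any fold and 9.57% past 2-fold. Without GFOGER replicate 3, 6 rose and 8 fell at any fold, against 57.5% of all genes. Their median log2 fold change was -0.14 with all libraries and -0.21 without that replicate. ADAMTS14, a procollagen N-proteinase, fell most, from 42.8 ± 1.9 cpm with IKVAV to 7.34 ± 0.62 cpm with GFOGER (log2 fold change -2.55, SE 0.14, adjusted p = 6.34e-10, edgeR). GLT25D2, a galactosyltransferase that acts on the hydroxylysines made by lysyl hydroxylases, fell from 153.0 ± 12.5 to 48.2 ± 1.6 cpm (log2 fold change -1.68, SE 0.10, adjusted p = 2.24e-09, edgeR).

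The partner subunit P4HB and a few further genes were chosen after their values were seen. P4HB, protein disulfide isomerase and the β subunit that holds P4HA1 and P4HA2 in solution, fell by 0.50 on the log2 scale in MDA-MB-231 (SE 0.080, adjusted p = 0.000116, edgeR), in the same direction as both catalytic subunits. Per kilobase it was 8.81 ± 1.6 times as abundant as P4HA1 with GFOGER and 7.23 ± 0.23 times with IKVAV, and 41.4 ± 4.9 and 45.4 ± 8.0 times in T47D. The interaction of P4HB was -0.61 (SE 0.12, adjusted p = 0.00098, edgeR), in the direction of that of P4HA1. BMP1, the procollagen C-proteinase that also activates LOX, fell by 0.81 (SE 0.11, adjusted p = 2.87e-05, edgeR), whereas GLT25D1, the more widely expressed galactosyltransferase, rose by 0.54 (adjusted p = 0.000497, edgeR). P4HA3, a further catalytic subunit, had 1 to 8 counts per library in MDA-MB-231 and 0 counts in all 3 libraries of T47D with IKVAV, which allows up to 0.178 to 0.2035 cpm per library (3 counts, covering counting error only).

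Of the 17 collagen chains that these enzymes act on, 13 were tested in MDA-MB-231, 2 rose, 4 fell, and 2 of the latter fell past 2-fold, against the same 42.9% and 9.57% of all genes. Without GFOGER replicate 3, 2 of 12 rose and 5 fell, against 57.5% of all genes. Their median log2 fold change was -0.37. COL1A2 was low throughout, at 2.30 ± 0.18 cpm with GFOGER and 4.99 ± 0.92 cpm with IKVAV, and fell by 1.12 on the log2 scale (SE 0.25, adjusted p = 0.00205, edgeR). The chains that rose, named after their values were seen, were COL4A1 (0.59, adjusted p = 0.00389, edgeR) and COL4A2 (0.60, adjusted p = 0.00109, edgeR) of basement membrane collagen. COL5A1, the most abundant chain of the list in every MDA-MB-231 library, was at 324.8 ± 52.9 and 362.0 ± 31.6 cpm, with overlapping groups and an adjusted p of 0.236 (edgeR).

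Among the 17 elastic fibre and fibril-associated genes, 11 were tested in MDA-MB-231, 3 rose and 4 fell, all past 2-fold, where 9.57% of all genes were, with a median log2 fold change of -0.60. FMOD (fibromodulin), a proteoglycan on collagen fibrils, fell from 13.98 ± 0.76 to 1.58 ± 0.23 cpm (log2 fold change -3.15, SE 0.21, adjusted p = 7.71e-09, edgeR). MFAP2, a microfibril protein, fell by 1.80, and EFEMP2, a fibulin that brings LOX to tropoelastin, by 1.18. EFEMP1 and FBLN1, other fibulins, rose by 1.46 and 1.25, all 4 past the adjusted p of edgeR's test. ELN, the elastin gene, had 0 to 7 counts per library in the 4 conditions. Without GFOGER replicate 3, 3 genes of this list rose and 5 fell at any fold, against 57.5% of all genes, and 3 rose and 3 fell past 2-fold, against 10.6%.

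Because P4HA1, P4HA2, PLOD1, PLOD2 and LOX are textbook targets of hypoxia-inducible factors, 24 other hypoxia-inducible genes were listed beside them. In MDA-MB-231 with GFOGER, 3 of the 24 rose and 15 fell at any fold, against 21.4% of all genes in each direction, and 3 fell past 2-fold, where 9.57% of all genes changed that far in either direction. The median log2 fold change was -0.41, and the summed level was 7938 to 8100 cpm with GFOGER and 9848 to 9976 cpm with IKVAV, with ENO1 the most abundant gene. EGLN3, an oxygen sensor, fell by 1.49 on the log2 scale (SE 0.14), DDIT4 by 1.45 (SE 0.10) and NDRG1 by 1.13 (SE 0.082), all with adjusted p-values of edgeR's test below 1e-06. In T47D, 0 of 23 passed edgeR's quasi-likelihood test and 3 had an unadjusted p below 0.05, where 11.2% of all genes did. The interaction passed for 11 of the 24, 9 of them below 0, against 21% and 10.2% of all genes, and 21 of the 24 were higher in MDA-MB-231 than in T47D at any fold, against 42% of all genes. Without GFOGER replicate 3, 4 rose and 18 fell in MDA-MB-231, against 57.5% of all genes in either direction, and 4 fell past 2-fold, against 10.6%. Oxygen was not measured, and the part of this list's change in that of the enzymes was not tested.

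Lysyl oxidases need copper and the hydroxylases need ascorbate. Of 7 transporters and carriers, all tested in MDA-MB-231, 1 rose and 3 fell at any fold, against 42.9% of all genes in either direction, and 0 were past 2-fold, with a median log2 fold change of -0.45. The most abundant per kilobase were ATOX1, a copper chaperone, which rose by 0.54 (adjusted p = 0.0022, edgeR), SLC23A2, the ascorbate transporter, which fell by 0.76 (adjusted p = 9.84e-06, edgeR), and SLC31A1, the copper importer, which had -0.076 (adjusted p = 0.563, edgeR). ATP7A, which loads copper onto lysyl oxidases in the secretory pathway, fell by 0.45 (adjusted p = 0.00776, edgeR) and was named after its value was seen. In T47D, 0 genes of the 4 lists other than the hypoxia list passed edgeR's quasi-likelihood test either, with 4 of 17, 2 of 7, 1 of 7 and 0 of 6 at an unadjusted p below 0.05, against 11.2% of all genes. Without replicate 3 of T47D with IKVAV, 3 of 18 collagen biosynthesis genes, 1 of 7 chains, 1 of 23 hypoxia-inducible genes, 0 of 7 elastic fibre genes and 0 of 6 transporters and carriers passed, against 7.62% of all genes.

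**Figure D4:**
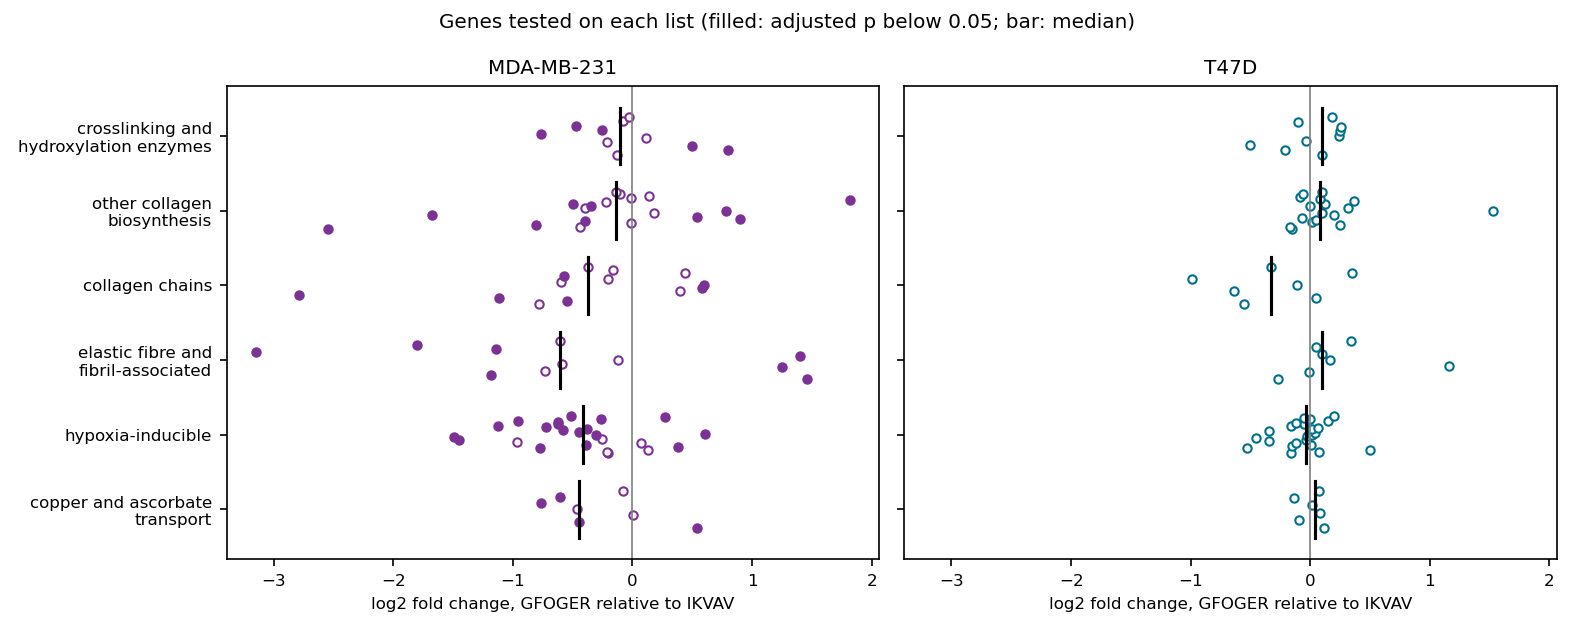
Log2 fold change of GFOGER relative to IKVAV for the enzymes and for the other gene lists in both cell lines; each point is 1 tested gene, filled with an adjusted p below 0.05, and the line marks the median of a list. In MDA-MB-231 the hypoxia-inducible list has a median of -0.41 and the enzymes of -0.10.

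Markers of other cell types were also read beside these results. In MDA-MB-231, 5 of 6 basal B or mesenchymal-like markers rose with GFOGER and 1 fell, and 1 of 9 luminal markers fell, against 42.9% of all genes in either direction. Without GFOGER replicate 3, 4 of the 9 luminal markers fell, 1 of them past 2-fold, against 57.5% of all genes. The part of these changes in those of the enzymes was not tested. All 4 fibroblast markers that could be tested fell with GFOGER, against 21.4% of all genes, and 3 of them past 2-fold, against 9.57% in either direction. All 4 also fell without GFOGER replicate 3, 2 of them past 2-fold, against 57.5% and 10.6% of all genes in either direction. The list of 9 summed to 19.1 to 23.4 cpm with GFOGER and 35.1 to 38.5 cpm with IKVAV. COL1A1 was the most abundant of them. PDGFRB had 70 to 92 counts per library with GFOGER and 147 to 230 with IKVAV (log2 fold change -1.29, adjusted p = 0.000117, edgeR), and LUM 18 to 27 and 45 to 50 (-1.14, adjusted p = 0.00976, edgeR), while DCN and THY1 had 0 or 1 counts in each MDA-MB-231 library. The 5 endothelial or leukocyte markers summed to 371.6 to 489.4 cpm with GFOGER and 270.1 to 280.4 cpm with IKVAV, most of it CD68. KDR had 293 to 346 counts with GFOGER and 141 to 159 with IKVAV and rose by 0.96 on the log2 scale (adjusted p = 0.000118, edgeR), and PECAM1 had 144 to 169 and 225 to 237 and fell by 0.70 (adjusted p = 0.00174, edgeR), while CDH5 had 0 or 1 counts and PTPRC 1 to 10. In T47D the fibroblast list summed to 53.3 to 63.1 cpm, nearly all COL1A1, and the endothelial or leukocyte list to 1.99 to 3.45 cpm.

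The genes whose log2 level across the 11 libraries was most like that of P4HA1, the enzyme with the smallest p-value in MDA-MB-231, were DPYSL2, LPCAT2 and CD99L2, with Pearson correlations of 0.9952, 0.9948 and 0.9946 among 15319 genes. These libraries fall into 2 cell lines, between which P4HA1 differed by 2.41 on the log2 scale, and correlations within a line were not tested.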

How the data were processed

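RNA from 12 samples was described in the labels and 11 had counts. Per the labels, the authors checked reads with FastQC, trimmed them with Trim Galore 0.4.4, aligned them to hg19 with TopHat2 2.1.0 and counted reads per gene with HTSeq 0.6.1p1. SAMtools 1.4, bedtools 2.17 and edgeR 3.16.5 are also named there. Which annotation and strand setting HTSeq used is not given in the sources used here. The deposited table holds a raw count and an RPKM value per gene and library. The RPKM values deposited by the authors imply totals of 5191201 to 5774966 reads in 5 libraries, whose counts are 295.9% to 308.6% of that total, and of 19898878 to 22840524 in the other 6, and were used only as an alternative. Authors' comparison columns were not used.

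Of 24656 entries, 1288 repeat a symbol. The entry with the most counts was kept, and 4 of those dropped had a count. None of the 10 enzymes was repeated. Counts were analysed in R 4.3.3 with edgeR 4.0.16 (filterByExpr, TMM, quasi-likelihood test, Benjamini-Hochberg adjustment over all genes tested), separately for each cell line, and over the 4 conditions for the cell line difference and the interaction. A gene passed with an adjusted p below 0.05, and was called with an absolute log2 fold change above 1 as well. The SE was derived from the fold change and the F statistic, with 95% intervals from the t distribution. Levels are cpm on TMM library sizes, and levels per kilobase use the gene length in the table. DESeq2 1.42.0, edgeR's likelihood ratio test, other scaling, filters and thresholds, a replicate block, the set of implied totals as a term, and leaving out each library were alternatives. Tests were checked on simulated data.

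The 10 enzymes and the gene lists were chosen with earlier results of these data known. All enzymes are named. Of the other lists, genes called in MDA-MB-231 are named where their average level was 2 or more in log2 cpm (0 or more where there were none), or the most abundant per kilobase where none was called. Cell type markers are named in all groups. Other genes named from the lists, among them COL4A1, COL4A2, COL5A1 and ELN, were chosen after their values were seen. For the enzyme with the smallest p-value in MDA-MB-231, the 3 genes most correlated with it are given.

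Replicate numbers did not pair the libraries: across genes, same-numbered libraries of the 2 mimics had deviations from the group means that correlated at -0.0602 to 0.017. Promoter windows are from RefSeq, located in GRCh37 by exact match.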

Additional observations from a re-analysis of the deposited data

Results flagged for a closer look

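For 3 enzymes the response to GFOGER relative to IKVAV differed between the cell lines by a test of the difference itself, the interaction term of edgeR's quasi-likelihood fit over 11 libraries. The interaction of P4HA1 was -0.9995 on the log2 scale, with 3 of 3 GFOGER libraries below both IKVAV libraries in MDA-MB-231 and overlapping libraries in T47D. The interaction of PLOD1 was -0.7175 and that of P4HA2 -0.501, both with GFOGER libraries lower in MDA-MB-231 and higher in T47D with no overlap, although neither passed the test within T47D. The share of all genes without overlap is not given here. LOX in MDA-MB-231 also had no overlap, with a log2 fold change of -0.13 that did not pass. In the same fit 21% of all genes had an adjusted p below 0.05. No group of libraries was put to a test for outlying samples, since each had 3 libraries or fewer. The libraries that stood apart were only described, by the chi-square per gene between replicates.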

How the results depend on the processing

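Most values kept their direction and their side of the threshold. Without the replicate number as a block and with it, P4HA1, PLOD1, P4HA2, LOXL1 and LOXL2 all passed in MDA-MB-231. The replicate block turned PLOD2 in MDA-MB-231 to 0.013 and its interaction to -0.014, brought PLOD3 in MDA-MB-231 to -0.15 (adjusted p = 0.0219, edgeR), and gave 5 genes past both thresholds in T47D. P4HA2 in MDA-MB-231 no longer passed without a filter (adjusted p = 0.068) and with all 4 conditions in 1 fit (0.0654, both edgeR). With the set of implied totals as a term, the GFOGER libraries were compared with IKVAV replicate 2 alone. The log2 fold change of P4HA2 there lay between -0.31 and -0.24 in all 10 alternatives. The interaction of P4HA2 did not pass with the set of implied totals as a term (-0.39, adjusted p = 0.158, edgeR). With the 2-fold threshold inside the test, 0 of the 5 enzymes that had passed in MDA-MB-231 and 0 of the 3 interactions still passed. The cause was not tested in any of these cases.

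With the adjusted p as the only threshold, 6040 genes passed in MDA-MB-231 (5 enzymes), 6 in T47D, 12947 between the cell lines and 3222 in the interaction (3 enzymes). Genes past both thresholds numbered 403 in MDA-MB-231 with the 2-fold threshold inside the test. In T47D they numbered 8 with DESeq2, 35 with the likelihood ratio test, 20 without a filter, 0 with the 2-fold threshold inside the test, 49 with the set of implied totals as a term and 5 with all 4 conditions in 1 fit. Leaving out a library of T47D gave 0 to 94, the most without IKVAV replicate 3. For the cell lines they numbered 4091 with at least 10 counts in every library. For the interaction they numbered 132 with the 2-fold threshold inside the test.

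For the interaction of the enzymes, 1 was past both thresholds with DESeq2, the likelihood ratio test, upper-quartile factors, library size alone, no filter, a minimum of 10 counts per library or the set of implied totals as a term, and 0 to 1 when a library was left out. At any fold 5 passed with the likelihood ratio test and with no filter, where LOXL1 and LOXL2 joined, and LOXL2 alone joined with DESeq2 (adjusted p = 0.0385). The set of implied totals as a term turned PLOD3 in MDA-MB-231 to 0.075, LOXL2 in T47D to 0.18 and the interaction of LOXL3 to 0.27, and gave -0.39 for PLOD2 in T47D. Within a cell line, that term left the GFOGER libraries compared with 1 IKVAV library alone. It was replicate 2 in MDA-MB-231 and replicate 3 in T47D. Library size alone gave the interaction of PLOD2 as -0.0059.

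Leaving out a library turned fold changes that had not passed. In MDA-MB-231, LOXL3 ranged from -0.49 to 0.054, PLOD2 from -0.14 to 0.012 and PLOD3 from -0.15 to 0.080. In T47D, LOX ranged from -0.077 to 0.26, LOXL1 from -0.55 to 0.20, LOXL2 from -0.94 to 0.084, LOXL3 from -0.17 to 0.23 and PLOD2 from -0.19 to 0.065. In the interaction, LOXL3 ranged from -0.45 to 0.088, LOXL4 from -0.070 to 0.62 and PLOD2 from -0.14 to 0.12.

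Summed over the 10 enzymes, the level per kilobase was 442.3, 472.2, 112.0 and 107.0 in MDA-MB-231 with GFOGER and IKVAV and T47D with GFOGER and IKVAV. From the RPKM values as deposited it was 342.7, 880.7, 347.9 and 168.2, with totals that differ by library as described for the processing. Depth limits LOX, LOXL1, LOXL2 and LOXL4 in T47D and LOXL3 in MDA-MB-231.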
